A study of Homo sapiens with 9 samples.

Results

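The genes described here are 52 members of the long arm of chromosome 11, bands 11q22-q25. They were chosen by name, for their position, from the 19706 gene symbols of the table. Earlier results of these data were known when they were chosen. All 52 were placed on chromosome 11 by their symbols in the GENCODE v29 annotation of GRCh38, from the start of YAP1 at 102110461 to the end of ACAD8 at 134265855, a span of 32.2 Mb. Of these, 44 reached 1 or more scaled TPM (defined below) in at least 3 libraries and were tested, among 13077 genes tested in all. RNA was measured in 3 human neuroblastoma cell lines with 3 libraries each, all from untreated cultures at about 70% confluence and all made from polyadenylated RNA. Kelly and BE(2)C are labelled as MYCN-amplified lines, and SH-SY5Y as a line without MYCN amplification. With 1 line lacking the amplification, MYCN status and the line itself cannot be told apart, and each line stands for 1 tumour; BE(2)C and SH-SY5Y are in addition known to be clones of older lines. Whether a line's 3 libraries are from different cultures is not in the labels. The p-values therefore stand for library-to-library spread, perhaps of a technical kind.

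Loss of distal 11q is among the recurrent chromosome changes of neuroblastoma and is known mainly from tumours without MYCN amplification. The arm carries DNA damage genes (ATM, H2AFX), a histone methyltransferase (KMT2A), adhesion molecules proposed as tumour suppressors (CADM1) and a microRNA cluster with a let-7 gene, let-7a-2, beside miR-100 and miR-125b-1. The let-7 family represses MYCN and other growth genes, and the series is about its disruption in neuroblastoma. No DNA data were analysed here, so the copy number of the arm in these lines is not known from these files.

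The microRNA sequences are shown because the cluster lies inside the stretch of the arm that was lower in Kelly. They come from RefSeq on GRCh38.p14, run 5′ to 3′, and have the seed (bases 2 to 8) in capitals in the mature forms. The 3 seeds differ from one another.
hsa-let-7a-5p (made by let-7a-2 among other loci): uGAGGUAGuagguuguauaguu
hsa-miR-100-5p: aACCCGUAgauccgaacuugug
hsa-miR-125b-5p: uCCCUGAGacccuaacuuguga
In the let-7a-2 hairpin, at chr11:122146522-122146593 on the minus strand, capitals mark the mature strands of both arms.
MIRLET7A2: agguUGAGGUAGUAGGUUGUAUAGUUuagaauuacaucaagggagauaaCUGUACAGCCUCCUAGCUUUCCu
The hairpin starts 20.04 Mb from the start of YAP1, between the members SORL1 at 19.34 Mb and UBASH3B at 20.55 Mb. The level of the microRNAs and of their host transcript was not analysed here.

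The values given below are scaled TPM, that is, the deposited values back-transformed, rescaled to the total over genes and divided by a trimmed-mean factor. The depth of the libraries is unknown, so no counting interval is given. Spike-in RNA took 83.7% to 90.6% of the back-transformed totals. Genes took 9.34% to 11% of them in the Kelly libraries and 13.2% to 16.2% in those of the other lines. The part of this difference in the members' values was not tested. MYCN averaged 5970 ± 77.5 in Kelly, 6050 ± 1090 in BE(2)C, against 27.2 ± 1.01 in SH-SY5Y (SD, n = 3 each), as the labels have it. Of 8 noradrenergic neuroblastoma markers, 8 averaged 1 or more in Kelly, 8 in BE(2)C, and 7 did so in SH-SY5Y, where TH averaged 0.191. Each list of markers of other cells summed to at most 6.92 in Kelly, 40.7 in BE(2)C, against 22.8 in SH-SY5Y, the last 2 from the fibroblast list (COL1A1, COL1A2, DCN and LUM). PTPRC, CD3E, KRT5, ALB and HBB averaged 0.103 or less in every line. These sums were not tested against the members' values.

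Along the arm, Kelly showed a step. Against SH-SY5Y, limma's trend method (Benjamini-Hochberg adjusted p under 0.05) called 11 of the 44 tested members higher and 27 lower, where 28.1% of all tested genes were higher and 27.2% lower. The members' median log2 fold change was -0.87, against -0.0043 for all genes tested. In such bulk samples, fewer cells with a transcript and less of it per cell cannot be told apart. When the members were put in order of position, those up to USP28 (proximal) and those from CADM1 on (distal) differed in direction. This split was chosen after the values were seen and is a description. Up to USP28, 10 of 13 tested members were called higher and 1 lower, with a median of 0.62. From CADM1 on, 1 of 31 was called higher and 26 lower, with a median of -1.05. Of these 26, 15 were lower by 1 or more on the log2 scale, which 13.4% of all tested genes were.

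**Figure D1:**
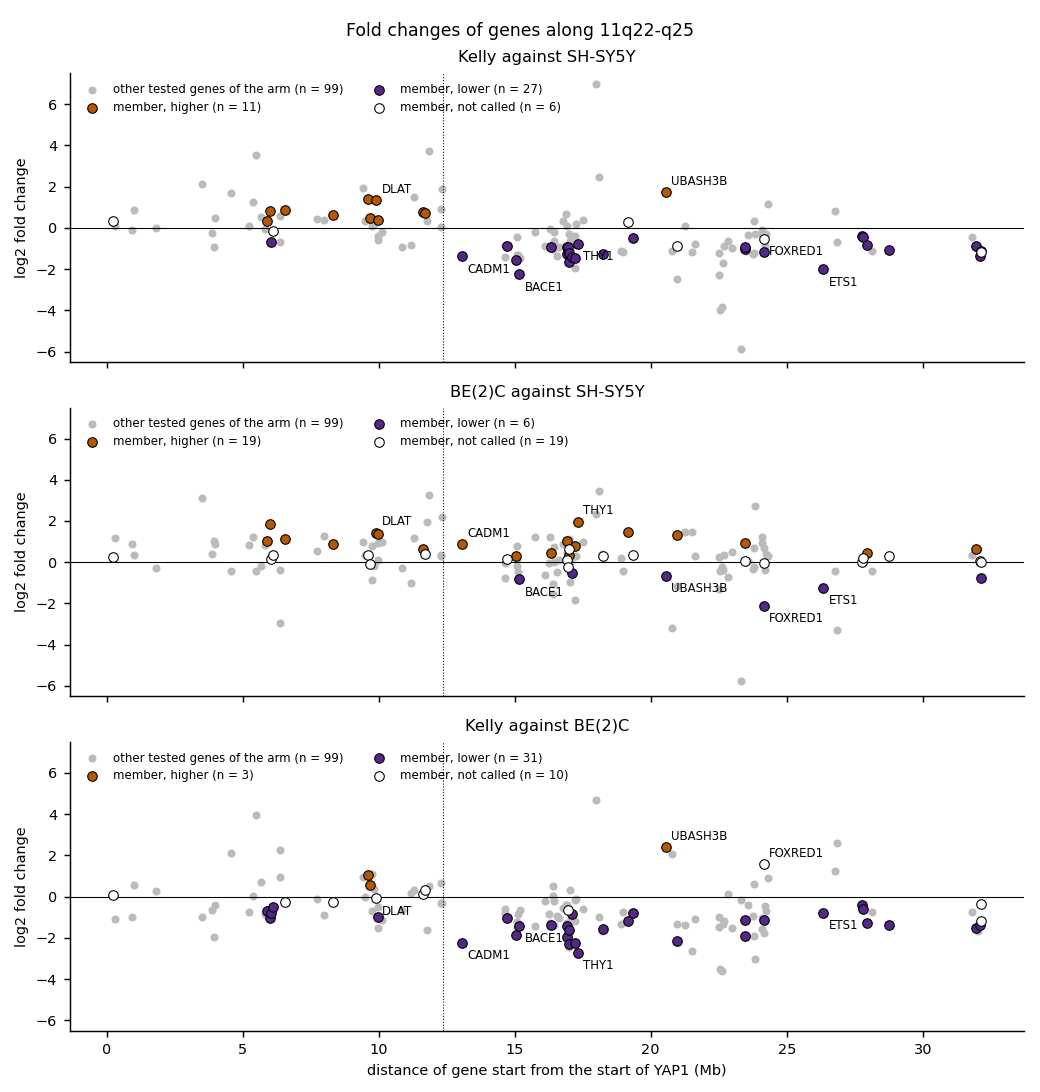
Log2 fold changes (y axis) of the 44 tested members and 99 other tested genes of the arm, by distance of the gene start from the start of YAP1 in Mb (x axis), for Kelly against SH-SY5Y (top), BE(2)C against SH-SY5Y (middle) and Kelly against BE(2)C (bottom). The dotted line lies between USP28 and CADM1; in the top panel 10 of 13 members left of it were called higher and 26 of 31 right of it were called lower.

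The genes of the arm that are not members were also mostly lower from CADM1 on. Of 65 tested there, 5 were called higher and 41 lower in Kelly than in SH-SY5Y, beside 28.1% and 27.2% of all genes tested. Of 34 tested before CADM1, 12 were called higher, a share of 35.3% that is near the background, and 1 was called lower, NCAM1, with a log2 fold change of -0.93. Their medians were 0.29 before CADM1 and -0.87 from it on. The last tested gene before CADM1 was REXO2, with a log2 fold change of 1.89, and its end lies 719 kb from the nearer end of CADM1. REXO2 and NCAM1 are named here after their values were seen.

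Each library showed the same order. For the 31 members from CADM1 on, the median deviation from the gene's mean over the 9 libraries, less that of all genes, was -0.81, -0.85 and -0.79 in the Kelly libraries. It was 0.64, 0.54 and 0.54 in BE(2)C and 0.19, 0.13 and 0.21 in SH-SY5Y. For the 13 members up to USP28, the same measure was -0.0094, 0.2 and 0.14 in Kelly, 0.44, 0.23 and 0.32 in BE(2)C, and -0.51, -0.49 and -0.51 in SH-SY5Y. Kelly was thus the lowest line in the distal stretch and SH-SY5Y the lowest in the proximal one.

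**Figure D2:**
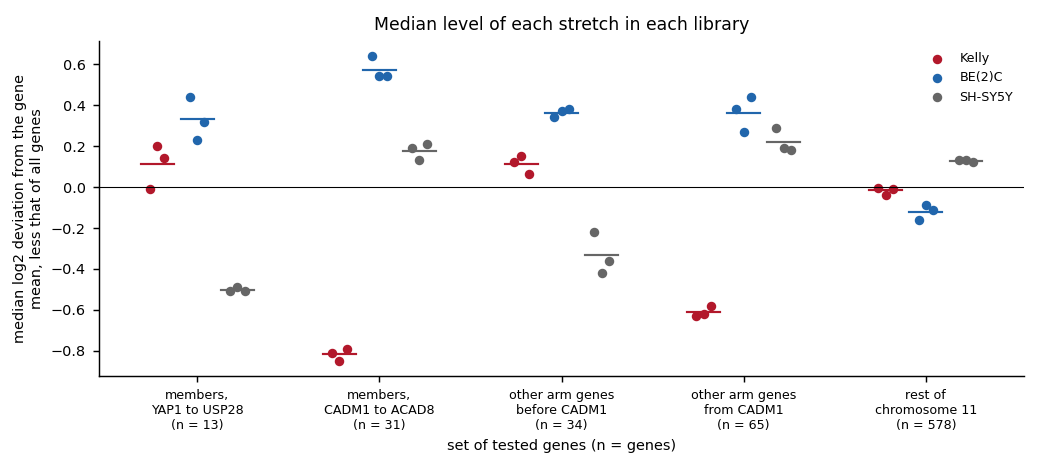
Median log2 deviation from each gene's mean over 9 libraries, less that of all genes (y axis), for 5 sets of tested genes (x axis); each point is 1 library and each bar the mean of a line's 3 libraries, with Kelly left, BE(2)C in the middle and SH-SY5Y right. In the members from CADM1 to ACAD8 the Kelly libraries lie between -0.85 and -0.79, and the other 6 libraries at 0.13 or above.

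The spike-ins also set Kelly apart, since their relative values differed between Kelly and the other lines. Over 61 spike-ins, log2 ratios between a pair of libraries had an SD of 0.31 to 0.379 in the 18 pairs with Kelly on 1 side and 0.0602 to 0.103 in the 18 other pairs. The largest shift of a single spike-in was 1.42 for Kelly against SH-SY5Y, 1.24 for Kelly against BE(2)C and 0.18 for BE(2)C against SH-SY5Y. Its part in the members' values was not tested.

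Between the MYCN-amplified lines, limma called 3 of the 44 members higher and 31 lower in Kelly than in BE(2)C, where 27.9% of all tested genes were higher and 24.6% lower. The median was -1.05. From CADM1 on, 1 member was higher and 26 were lower, with a median of -1.36, and 21 of the 26 were lower by 1 or more, against 9.54% of all genes. Up to USP28, 2 members were higher and 5 lower, with a median of -0.27.

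In BE(2)C against SH-SY5Y, 19 of the 44 members were called higher and 6 lower, where 28.6% of all tested genes were higher and 30.7% lower. The median was 0.35. Up to USP28, 7 members were higher and 6 were not called, and from CADM1 on, 12 were higher and 6 lower, with medians of 0.62 and 0.30. This comparison depended on the scaling. Mitochondrial genes took 24.5% to 35.3% of the gene total in the BE(2)C libraries, against 16.5% to 19.8% in the other 6, and with them left out of the total 14 members were called higher and 6 lower, with a median of 0.16. With values rescaled to the gene total only, or as deposited, the median of all genes moved to -0.44 in both, and the members were called higher and lower 10 and 10 times, or 9 and 10 times. The members' median turned to -0.084 and -0.14, but less the median of all genes it was still above 0 in each setting.

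Of the distal members, 26 of 31 were called lower in Kelly than in SH-SY5Y, 28 of 31 with the gene total only and 23 of 31, with 2 higher, under quantile normalization. Up to USP28, 7 of 13 members were called higher and 1 lower with the gene total only or with mitochondrial genes left out. Under quantile normalization 11 of the 13 were higher and 1 lower. Values as deposited moved the median of all genes to -0.55 for Kelly against SH-SY5Y, and then 26 of 27 tested distal members were called lower. Of the 13 members up to USP28, 2 were then called higher and 3 lower, with a median of -0.042. Less the median of all genes, the medians were then -0.79 for the distal and 0.50 for the proximal members, against -1.05 and 0.62 in the scaled values.

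The arm was set beside the rest of its chromosome in 10-Mb bins, of which 235 over the genome held at least 20 tested genes. In Kelly against SH-SY5Y, bin 11 of chromosome 11, with the start of the arm, had a median of 0.41 above that of all genes. Bins 12 and 13 had -0.60 and -0.85, at ranks 16 and 11 from the lowest of the 235. Bin 14 had -1.04 over 12 genes, too few to rank. Bins 1 and 2, at the other end of the chromosome, were as low, at -1.02 and -0.83 (ranks 5 and 12), so a low stretch was not particular to the distal long arm. In Kelly against BE(2)C, bins 12 and 13 ranked 8 and 3 from the lowest, with -0.76 and -1.09, while bins 1 and 2 had -0.28 and -0.40.

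**Figure D3:**
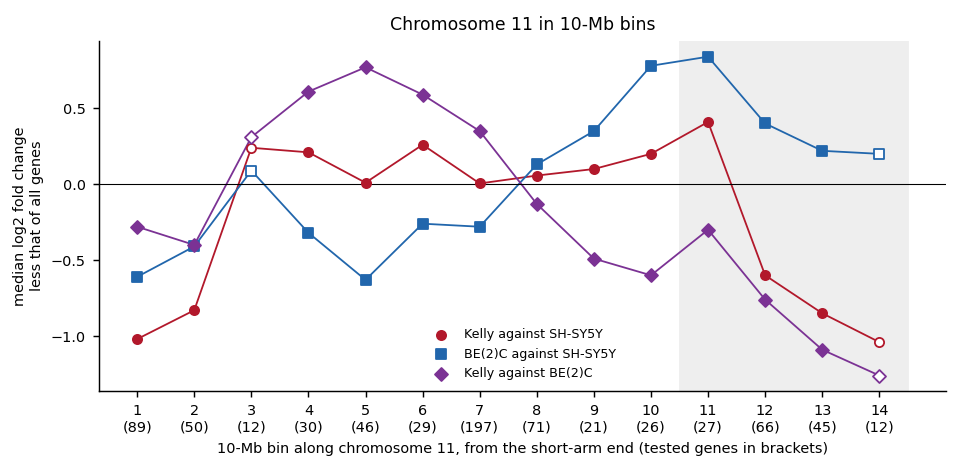
Median log2 fold change, with the median over all genes subtracted (y axis), in 10-Mb bins along chromosome 11 (x axis, number of tested genes in brackets) for the 3 comparisons; open symbols are bins with under 20 genes, and grey marks the bins that hold the arm. Kelly against SH-SY5Y drops to -0.60 and -0.85 in bins 12 and 13, next to 0.41 in bin 11.

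The 6 tested mitochondrial enzymes lie on both sides of the split at CADM1. DLAT, a subunit of pyruvate dehydrogenase, stood at 81.2, 72.3 and 70.4 scaled TPM in the Kelly libraries, at 86.5, 84 and 69.4 in BE(2)C and at 26.9, 30.6 and 29.3 in SH-SY5Y. All 6 libraries of the MYCN-amplified lines lay above those of SH-SY5Y, with log2 fold changes of 1.34 (SE 0.105, adjusted p = 6.0e-06) in Kelly and 1.43 (adjusted p = 3.4e-06) in BE(2)C by limma. ACAT1, which makes and breaks acetoacetyl-CoA, had 120, 108 and 115 in Kelly, 238, 255 and 221 in BE(2)C and 70.8, 66.7 and 56.6 in SH-SY5Y. The 3 lines did not overlap: Kelly was higher than SH-SY5Y by 0.81 (SE 0.0945, adjusted p = 7.8e-05) and lower than BE(2)C by -1.05 (adjusted p = 1.8e-05). SDHD, an anchor subunit of succinate dehydrogenase and a tumour suppressor of paraganglioma, had 34.5, 40.3 and 39.2 in Kelly, 89.1, 73.9 and 64.9 in BE(2)C and 28.2, 28.9 and 28.5 in SH-SY5Y. BE(2)C was the highest line, by 1.37 over SH-SY5Y (SE 0.119, adjusted p = 1.0e-05). Kelly was higher than SH-SY5Y by 0.40 (adjusted p = 0.0181), a call lost without Kelly library 2 (0.35, adjusted p = 0.0598) or Kelly library 3 (0.38, adjusted p = 0.0531). Of the exon bases of SDHD, 13.9% are shared with another annotated gene on the same strand.

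FDX1, a mitochondrial electron carrier of steroid and iron-sulphur pathways, averaged 21.9 ± 0.801 in Kelly, 27 ± 3.17 in BE(2)C, against 14 ± 1.84 in SH-SY5Y, and was called higher in both MYCN-amplified lines than in SH-SY5Y (0.62 and 0.90). The last 2 enzymes lie from CADM1 on, and their libraries spread widely. FOXRED1, a complex I assembly factor, ran from 0.212 to 9.53 across the Kelly libraries, was at 2.03 or below in BE(2)C and ran from 3.29 to 9.62 in SH-SY5Y. It was called lower in BE(2)C than in SH-SY5Y (-2.13, SE 0.785, adjusted p = 0.0417). That call was lost without BE(2)C library 2 or 3 (adjusted p = 0.125 and 0.102) and without SH-SY5Y library 1 or 3 (adjusted p = 0.0921 and 0.122). Kelly against BE(2)C was not called (1.57, adjusted p = 0.123), but was without Kelly library 2 (2.55, adjusted p = 0.0043). ACAD8, an enzyme of valine breakdown, averaged 3.55 ± 2.41 in Kelly, 10.2 ± 7.36 in BE(2)C, against 8.52 ± 1.95 in SH-SY5Y, and was not called (adjusted p = 0.0885 for Kelly against SH-SY5Y). Without Kelly library 2 its log2 fold change for that comparison was -1.57 (adjusted p = 0.0393), without BE(2)C library 1 it was -1.17 (adjusted p = 0.0321) and without BE(2)C library 2 the adjusted p was 0.0494. Against BE(2)C it was called without Kelly library 2 (-1.57, adjusted p = 0.0414) and without BE(2)C library 1 (-1.74, adjusted p = 0.0109).

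Of the 8 tested genes of DNA damage, the cell cycle and chromatin, 2 were called higher and 5 lower in Kelly than in SH-SY5Y, beside 28.1% and 27.2% of all genes tested, so the higher count is near the background. ATM, the kinase that responds to DNA double-strand breaks, had 31.3, 40.3 and 23.7 scaled TPM in Kelly, 48.7, 39.9 and 46.4 in BE(2)C and 39.5, 31.5 and 32.7 in SH-SY5Y. Kelly and SH-SY5Y overlapped, and the log2 fold change of -0.14 (SE 0.182, adjusted p = 0.533) did not pass; without Kelly library 3 it was 0.045. With values as deposited, where the median of all genes moved to -0.55, it was -0.70 and was called (adjusted p = 0.00325). Against BE(2)C, ATM was lower in Kelly by -0.52 (adjusted p = 0.0386). That call was lost in 6 of the 9 fits that left out 1 library, with adjusted p values of 0.0788 and 0.115 without Kelly libraries 1 and 3, 0.107 and 0.0915 without BE(2)C libraries 1 and 3, and 0.0505 and 0.053 without SH-SY5Y libraries 2 and 3. It was also lost with values rescaled to the gene total only (-0.20, adjusted p = 0.438), with no filter (adjusted p = 0.0563), with mitochondrial genes out of the total (adjusted p = 0.0748) and with a replicate block (adjusted p = 0.051). In BE(2)C against SH-SY5Y, ATM was called without Kelly library 3 (0.37, adjusted p = 0.0467).

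H2AFX, the histone variant phosphorylated at DNA breaks and the member with the highest levels here, had 130, 157 and 148 in Kelly, 448, 472 and 417 in BE(2)C and 343, 362 and 328 in SH-SY5Y. Every Kelly library lay below every other library. The log2 fold change was -1.24 against SH-SY5Y (SE 0.0827, adjusted p = 2.1e-06) and -1.61 against BE(2)C (adjusted p = 6.5e-07). KMT2A, which methylates histone H3 at active genes, had 26.8, 30.5 and 28.9 in Kelly, 80, 69.4 and 78.4 in BE(2)C and 53.3, 56.6 and 56.4 in SH-SY5Y. It was also lowest in Kelly, by -0.93 against SH-SY5Y (SE 0.086, adjusted p = 1.8e-05) and -1.37 against BE(2)C (adjusted p = 2.0e-06). In BE(2)C against SH-SY5Y both were called higher (0.37 and 0.44), and both turned to values below 0, not called, with values rescaled to the gene total only or as deposited, H2AFX also under quantile normalization. Of the exon bases of KMT2A, 22% are shared with another annotated gene on the same strand.

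Among the rest of that group, ZW10, a kinetochore protein, and USP28, a deubiquitinase that stabilises MYC, stood above their SH-SY5Y levels in Kelly by 0.76 and 0.71, both called. USP28 averaged 42.9 ± 8.9 in Kelly, 34.3 ± 1.49 in BE(2)C, against 25.7 ± 4.16 in SH-SY5Y. NFRKB, a chromatin remodeller subunit, and PRDM10, a zinc finger protein, were lower by -0.38 and -0.45. The PRDM10 call was lost without any 1 of the Kelly libraries, BE(2)C library 3 or SH-SY5Y libraries 1 and 3, with adjusted p values of 0.0501 to 0.12. NPAT, a co-activator of histone genes, was the single member up to USP28 called lower in Kelly than in SH-SY5Y, with 11.1 ± 1.25 in Kelly, 20.4 ± 5.4 in BE(2)C, against 18.1 ± 1.5 in SH-SY5Y (log2 fold change -0.67, SE 0.183, adjusted p = 0.0124).

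NPAT and ATM are transcribed in opposite directions from 1 start region, their annotated 5′ ends overlapping by 158 bases. The promoter of ATM is shown because, in the scaled values, its neighbour was called lower in Kelly than in SH-SY5Y and ATM was not. The difference between NPAT and ATM was not tested. The window shown covers 250 bases before to 50 after the RefSeq start on GRCh38.p14, at chr11:108222817-108223116 on the plus strand. The CCAAT motif is in capitals, here as its reverse complement. The window begins past both GENCODE 5′ ends used above (108222484 for ATM, 108222642 for NPAT), so it does not cover their overlap.
ATM promoter: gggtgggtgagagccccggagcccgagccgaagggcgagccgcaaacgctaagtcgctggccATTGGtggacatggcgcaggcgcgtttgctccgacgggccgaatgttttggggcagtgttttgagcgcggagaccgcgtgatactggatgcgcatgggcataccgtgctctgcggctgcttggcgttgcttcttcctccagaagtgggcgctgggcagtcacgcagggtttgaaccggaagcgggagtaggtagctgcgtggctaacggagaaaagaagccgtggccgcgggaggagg
THYN1 and ACAD8, at the far end of the arm, are also head to head, 125 bases apart. The promoter of ACAD8, at chr11:134253318-134253617 on the plus strand, has the GGGCGG motif in capitals.
ACAD8 promoter: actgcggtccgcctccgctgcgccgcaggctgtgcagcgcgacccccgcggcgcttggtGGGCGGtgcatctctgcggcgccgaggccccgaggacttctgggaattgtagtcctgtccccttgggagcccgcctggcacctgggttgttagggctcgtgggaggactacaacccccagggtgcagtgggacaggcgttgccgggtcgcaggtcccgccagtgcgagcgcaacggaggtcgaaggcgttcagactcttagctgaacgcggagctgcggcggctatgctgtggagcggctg
Both motifs were searched on both strands. CCAAT was found in 14 of the 40 members with a promoter in the table (35%), against 34.6% of 35116 promoters. GGGCGG was found in 28 of the 40 (70%), against 45% of those promoters. The 35116 promoters outnumber the 19706 gene symbols, so members and promoters are unlike units. No enrichment is read from these shares. A match describes the letters of this window and is not evidence of binding.
THYN1, a nuclear protein of little known function, had 23.3, 17.3 and 22.3 in Kelly, 24.3, 33.8 and 22.9 in BE(2)C and 49.2, 43.5 and 45.2 in SH-SY5Y. SH-SY5Y was the highest line, with log2 fold changes of -1.11 in Kelly (SE 0.165, adjusted p = 4.0e-04) and -0.76 in BE(2)C (adjusted p = 0.00319).

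**Figure D4:**
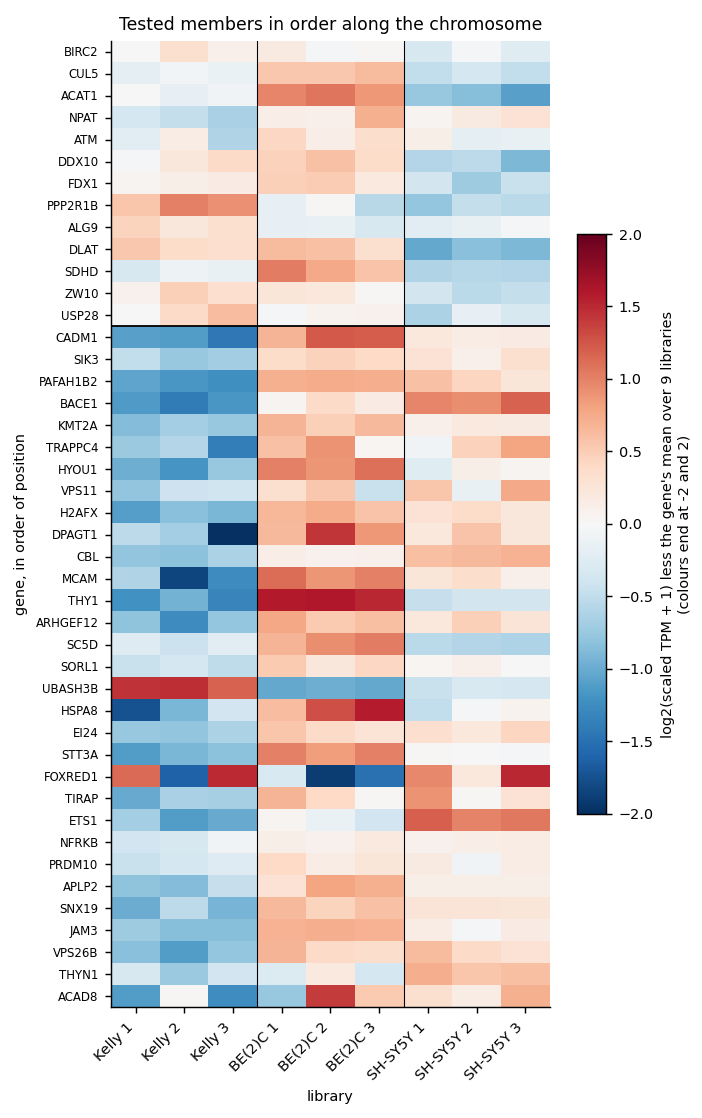
Log2(scaled TPM + 1) less the gene's mean over the 9 libraries (colour, red high and blue low, ending at -2 and 2) for the 44 tested members in order of position (y axis) in each library (x axis, Kelly left, then BE(2)C, then SH-SY5Y); the horizontal line separates USP28 and CADM1. Below it the Kelly columns are blue for nearly all members, with UBASH3B and 2 libraries of FOXRED1 among the exceptions.

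All 4 tested adhesion genes lie from CADM1 on, and all 4 were called lower in Kelly than in either other line under every scaling tried. In the scaled values, 27.2% of all genes tested were lower against SH-SY5Y and 24.6% against BE(2)C. Among members from CADM1 on, these 4 included, the share was 83.9% in both comparisons. Among other arm genes there it was 63.1% and 67.7%. CADM1, an immunoglobulin-family adhesion molecule at chr11:115169218-115504957, had 5.68, 5.53 and 4.31 scaled TPM in Kelly, 21.8, 32.3 and 32.1 in BE(2)C and 15.4, 14.7 and 15 in SH-SY5Y. The 3 lines did not overlap, and Kelly was lower by -1.39 against SH-SY5Y (SE 0.179, adjusted p = 1.6e-04) and by -2.25 against BE(2)C (adjusted p = 8.3e-06). THY1, a surface glycoprotein of neurons and fibroblasts, had 21.1, 25.7 and 19.5 in Kelly, 153, 155 and 145 in BE(2)C and 36.3, 38.7 and 38.8 in SH-SY5Y. BE(2)C stood far above both other lines, and Kelly against BE(2)C gave -2.73 (SE 0.102, adjusted p = 1.3e-07), the lowest value of any member in that comparison. In BE(2)C, the summed fibroblast markers ran from 12.7 to 40.7, against 3.41 to 4.80 in Kelly and 19.4 to 22.8 in SH-SY5Y, and their part in THY1 was not tested.

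MCAM (CD146), another adhesion molecule, had 9.32, 3.37 and 5.54 in Kelly, 32.9, 27.8 and 30.5 in BE(2)C and 17.6, 19 and 15.8 in SH-SY5Y. Kelly was lower by -1.47 against SH-SY5Y (SE 0.27, adjusted p = 0.00141) and by -2.23 against BE(2)C (adjusted p = 1.2e-04). JAM3, a junctional adhesion molecule near the end of the arm, had 49.9, 45.5 and 45.5 in Kelly, 135, 138 and 135 in BE(2)C and 91.9, 80.2 and 92.6 in SH-SY5Y. The lines were again apart, with -0.89 for Kelly against SH-SY5Y (SE 0.0758, adjusted p = 1.0e-05) and -1.52 against BE(2)C (adjusted p = 5.8e-07). In BE(2)C against SH-SY5Y, all 4 were called higher (0.62 to 1.97), but only THY1 was with values rescaled to the gene total only or as deposited. The MCAM call in that comparison (0.77, adjusted p = 0.0345) was lost when any 1 library of either line was left out, with log2 fold changes of 0.70 to 0.83. ST14, NTM and OPCML, further surface proteins of the arm, stayed under 1 in all 9 libraries and were not tested.

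All 8 tested genes of vesicle traffic and amyloid precursor processing also lie from CADM1 on, and all 8 were called lower in Kelly than in SH-SY5Y, beside 27.2% of all genes tested. Among members from CADM1 on, these 8 included, the share was 83.9%, and among other arm genes there it was 63.1%. Under quantile normalization 6 of the 8 were called lower. BACE1, the beta-secretase that cuts the amyloid precursor protein, had 12.4, 10.2 and 12.1 in Kelly, 29.6, 37.3 and 31.9 in BE(2)C and 56.5, 55.2 and 65.5 in SH-SY5Y. SH-SY5Y was the highest line, with -2.26 in Kelly (SE 0.127, adjusted p = 7.0e-07) and -0.83 in BE(2)C (adjusted p = 4.0e-04). Of the exon bases of BACE1, 19.2% overlap RNF214 on the other strand, and as no strand setting is given for the counting, such reads may not be told apart. PAFAH1B2, a catalytic subunit of platelet-activating factor acetylhydrolase, had 50.7, 46.9 and 44.7 in Kelly, 175, 179 and 176 in BE(2)C and 160, 143 and 126 in SH-SY5Y. Kelly lay far below both, by -1.57 against SH-SY5Y (SE 0.0905, adjusted p = 8.5e-07) and by -1.88 against BE(2)C (adjusted p = 4.6e-07). Its call in BE(2)C against SH-SY5Y (0.31) was lost without SH-SY5Y library 3 (0.22, adjusted p = 0.0543) and turned to -0.15 and -0.25, not called, with values rescaled to the gene total only and as deposited.

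APLP2, a relative of the amyloid precursor protein, had 32.7, 31.1 and 41.6 in Kelly, 70.3, 100 and 94.5 in BE(2)C and 62.5, 62.8 and 62.9 in SH-SY5Y. Kelly was below both lines, by -0.83 against SH-SY5Y (SE 0.147, adjusted p = 0.00112). The APLP2 call in BE(2)C against SH-SY5Y (0.47, adjusted p = 0.0204) was lost without BE(2)C library 2 or 3 (0.37 and 0.42) and without SH-SY5Y library 1 or 2 (0.47 in both), and as deposited it was -0.088. VPS26B, a retromer subunit, had 46.6, 37.9 and 48.4 in Kelly, 135, 110 and 107 in BE(2)C and 131, 110 and 103 in SH-SY5Y. Only Kelly stood apart here, by -1.35 against SH-SY5Y (SE 0.132, adjusted p = 2.6e-05), while BE(2)C and SH-SY5Y overlapped. SNX19, a sorting nexin, had 13.4, 18.9 and 14 in Kelly, 43.5, 37.6 and 41.6 in BE(2)C and 33.1, 33.2 and 32.8 in SH-SY5Y, with -1.06 for Kelly against SH-SY5Y (SE 0.134, adjusted p = 1.3e-04).

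TRAPPC4, a subunit of the vesicle-tethering TRAPP complexes, had 4.81, 5.43 and 2.72 in Kelly, 13.6, 17.1 and 8.91 in BE(2)C and 8.19, 12.3 and 15.7 in SH-SY5Y, with -1.29 for Kelly against SH-SY5Y (SE 0.316, adjusted p = 0.00674). Its exons overlap SLC37A4 (15.2% of its exon bases) and RPS25 (11%) on the other strand. SORL1, a sorting receptor for the amyloid precursor protein, averaged 5.45 ± 0.365 in Kelly, 10.4 ± 1.21 in BE(2)C, against 7.97 ± 0.342 in SH-SY5Y. VPS11, a subunit of the lysosomal tethering complexes, averaged 1.22 ± 0.321 in Kelly, 2.66 ± 1.18 in BE(2)C, against 3.32 ± 1.3 in SH-SY5Y. Their calls against SH-SY5Y were the weakest of the 8. SORL1 was lost without Kelly library 3 or SH-SY5Y library 1 or 2 (-0.44 to -0.48). VPS11 was lost without any 1 Kelly library or SH-SY5Y library 1 or 3 (-0.74 to -0.99).

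Genes of glycosylation, protein folding and sterol synthesis were lower in Kelly than in BE(2)C for 5 of 6 tested, and lower than in SH-SY5Y for 3 of 6, beside 24.6% and 27.2% of all genes tested. The 5 lie from CADM1 on, where 83.9% of the tested members were called lower in each of these comparisons. STT3A, a catalytic subunit of the oligosaccharyltransferase, had 29.5, 34.4 and 36.7 in Kelly, 132, 118 and 133 in BE(2)C and 66.7, 66.1 and 63.4 in SH-SY5Y. The 3 lines were apart, and the log2 fold changes of Kelly were -0.95 against SH-SY5Y (SE 0.0927, adjusted p = 2.5e-05) and -1.90 against BE(2)C (adjusted p = 5.0e-07). HYOU1, a chaperone of the endoplasmic reticulum, had 4.71, 4.01 and 5.65 in Kelly, 21.6, 19.8 and 23.2 in BE(2)C and 8.56, 11.3 and 10.7 in SH-SY5Y. The order was as for STT3A, with -0.95 (SE 0.168, adjusted p = 0.00113) and -1.97 (adjusted p = 1.3e-05). DPAGT1, which starts N-glycan assembly, had 4.55, 3.97 and 0.195 in Kelly, 11.5, 20.5 and 13.6 in BE(2)C and 8.21, 10.9 and 8.37 in SH-SY5Y. Kelly library 3 stood far below the others, and the call against SH-SY5Y (-1.65, SE 0.523, adjusted p = 0.0236) was lost without SH-SY5Y library 2 (-1.54, adjusted p = 0.0705) or 3 (-1.71, adjusted p = 0.0503). Of the exon bases of DPAGT1, 19.8% overlap C2CD2L on the other strand.

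SC5D, a sterol desaturase of cholesterol synthesis, was among the distal members not called lower in Kelly than in SH-SY5Y. It had 33, 29.4 and 33.9 in Kelly, 64.7, 77 and 82.2 in BE(2)C and 27.2, 26.2 and 25.7 in SH-SY5Y. BE(2)C was the highest line, by 1.46 over SH-SY5Y (SE 0.106, adjusted p = 3.2e-06), and Kelly against SH-SY5Y gave 0.27 (adjusted p = 0.0551). That value was called without Kelly library 2 (0.33, adjusted p = 0.0427) and without BE(2)C library 1 or 3 (adjusted p = 0.0263 and 0.048). ALG9, a mannosyltransferase up to USP28, averaged 15.8 ± 1.25 in Kelly, 10.5 ± 0.729 in BE(2)C, against 11.2 ± 0.831 in SH-SY5Y, and 74.5% of its exon bases are shared with another annotated gene on the same strand. Its call in Kelly against SH-SY5Y (0.46, adjusted p = 0.0163) was lost without SH-SY5Y library 1 (0.41, adjusted p = 0.0594). HSPA8, a constitutive chaperone of the cytosol that most cells make at high levels, had 0.638, 1.9 and 3.19 in Kelly, 7.38, 12.4 and 15.3 in BE(2)C and 2.9, 4.31 and 4.72 in SH-SY5Y. These levels are low for such a gene, so comparisons of level between genes in this table are uncertain. Its log2 fold change of -0.86 against SH-SY5Y (SE 0.371, adjusted p = 0.0777) was not called, but it was called without Kelly library 3 (-1.17, adjusted p = 0.027), with a replicate block (adjusted p = 0.0102) and with the gene total only (-0.98, adjusted p = 0.0458).

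Of the 9 tested genes of signalling, ubiquitin and cell death, 3 were called higher and 5 lower in Kelly than in SH-SY5Y, beside 28.1% and 27.2% of all genes tested, so the higher count is near the background. The 5 called lower lie from CADM1 on. CUL5, a ubiquitin ligase scaffold up to USP28, had 31.1, 34.3 and 32.5 in Kelly, 52.4, 52.6 and 56.2 in BE(2)C and 25.1, 27.7 and 25 in SH-SY5Y. Kelly lay between the other lines, 0.32 above SH-SY5Y (SE 0.0854, adjusted p = 0.0105). PPP2R1B, a scaffold subunit of protein phosphatase 2A, had 22.8, 31.6 and 29.6 in Kelly, 13.5, 15.4 and 9.98 in BE(2)C and 8.48, 10.7 and 10.2 in SH-SY5Y. It was among the 3 members higher in Kelly than in BE(2)C, by 1.06 (SE 0.191, adjusted p = 0.00134), and 1.42 above SH-SY5Y (adjusted p = 2.0e-04). BIRC2, an inhibitor of apoptosis, averaged 15.8 ± 1.92 in Kelly, 14.6 ± 1.25 in BE(2)C, against 12.2 ± 1.37 in SH-SY5Y and was called in no comparison (adjusted p = 0.0688, 0.168 and 0.603). DDX10, an RNA helicase of ribosome assembly in the same stretch, had 55, 65.4 and 73 in Kelly, 77.5, 83.8 and 72.1 in BE(2)C and 36.7, 38.7 and 29.5 in SH-SY5Y. Both MYCN-amplified lines were above SH-SY5Y, by 0.86 in Kelly (SE 0.132, adjusted p = 4.5e-04) and 1.14 in BE(2)C (adjusted p = 6.7e-05).

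CBL, a ubiquitin ligase of receptor tyrosine kinases at 17.1 Mb, had 17.6, 17.1 and 19.6 in Kelly, 34.3, 32.9 and 33.4 in BE(2)C and 47.8, 49.2 and 50.7 in SH-SY5Y. The 3 lines were well apart, with -1.40 for Kelly (SE 0.0878, adjusted p = 1.5e-06) and -0.54 for BE(2)C (adjusted p = 5.7e-04) against SH-SY5Y. ARHGEF12 had 29, 21 and 29.7 in Kelly, 88.9, 74.4 and 78.5 in BE(2)C and 59.5, 71.7 and 61.6 in SH-SY5Y, with -1.25 for Kelly against SH-SY5Y (SE 0.141, adjusted p = 6.3e-05). EI24, a p53-induced protein of the endoplasmic reticulum, had 20, 19.5 and 21.8 in Kelly, 51.2, 45 and 41.8 in BE(2)C and 43.6, 40.1 and 46.5 in SH-SY5Y. In both genes Kelly stood apart from the other lines, EI24 by -1.05 against SH-SY5Y (SE 0.105, adjusted p = 2.9e-05) and -1.13 against BE(2)C (adjusted p = 2.2e-05). SIK3, a salt-inducible kinase, had 9.27, 7.6 and 7.93 in Kelly, 17.7, 18.9 and 18.2 in BE(2)C and 16.7, 14.6 and 17.2 in SH-SY5Y, with -1.06 against BE(2)C (SE 0.132, adjusted p = 1.4e-04). TIRAP, an adaptor of toll-like receptors, had 5.52, 7.29 and 7.21 in Kelly, 20, 16.2 and 12.3 in BE(2)C and 23.4, 12.2 and 14.9 in SH-SY5Y. Its Kelly libraries lay below the rest despite the wide spread of the other lines, by -1.17 against SH-SY5Y (SE 0.256, adjusted p = 0.00368).

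UBASH3B, a phosphatase that opposes kinase signalling, was the single distal member called higher in Kelly, with 4.55, 4.7 and 3.62 in Kelly, 0.0378 or less in BE(2)C and 0.504, 0.643 and 0.623 in SH-SY5Y. It passed the filter through the Kelly libraries alone, so it had to differ, and no more is read from its log2 fold change of 1.73. It lies 20.55 Mb from the start of YAP1, next along from the let-7a-2 hairpin among the members.

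ETS1, a transcription factor, had 10, 7.05 and 7.69 in Kelly, 17.3, 15 and 12.5 in BE(2)C and 39.3, 33.8 and 35.6 in SH-SY5Y. SH-SY5Y was the highest line, with -2.02 in Kelly (SE 0.167, adjusted p = 8.4e-06) and -1.23 in BE(2)C (adjusted p = 1.8e-04). FLI1, its neighbour and relative, was listed at 0 in all 9 libraries. YAP1, the co-activator of the Hippo pathway at the start of the arm, was at 0.309 or less in every library, and ZBTB16, BIRC3 and IL18 also stayed under 1.

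Matches to the let-7 seed were counted in the 3′ UTRs of the members, because let-7 is the subject of the series. The letters CTACCTC were searched on the transcript strand of 1 transcript per gene, with a following A for the longer form. The longer form was present in 1 of 52 members (1.92%), against 3.15% of 18760 genes, and the shorter in 2 of 52 (3.85%), against 8.33%. CBL has 2 matches, 1 of them the longer form, in a 3′ UTR of 8368 bases, the longest among the members. VPS26B has 1 match, of the shorter form. For each, 1 match is shown in capitals, and for CBL it is the longer form.
CBL: aaagcagaatattctcCTACCTCA
VPS26B: actcacgattgggaagCTACCTCt
A match is a description of these letters and not a site of action. Both genes were lower in Kelly, and CBL also in BE(2)C, than in SH-SY5Y, by the values given above.

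Other genes of the arm are named here by the rule of largest change, and their levels are a description. TRIM29, a tripartite motif protein, averaged 145 ± 27 in Kelly, 4.75 ± 1.09 in BE(2)C, against 0.132 ± 0.109 in SH-SY5Y, inside the stretch where most genes were lower in Kelly. FEZ1, a neuronal transport protein, averaged 0.0481 ± 0.0833 in Kelly, 0.187 ± 0.324 in BE(2)C, against 61.1 ± 5.75 in SH-SY5Y; it passed the filter through SH-SY5Y alone and so had to differ. NRGN, neurogranin, averaged 3.05 ± 0.702 in Kelly, 48.9 ± 9.44 in BE(2)C, against 56 ± 4.08 in SH-SY5Y, and SPA17 averaged 0.399 ± 0.0772 in Kelly, 15.5 ± 4.12 in BE(2)C, against 22.9 ± 10.9 in SH-SY5Y. CDON, a receptor of hedgehog signalling, averaged 14.6 ± 3.75 in Kelly, 125 ± 7.58 in BE(2)C, against 17.9 ± 3.16 in SH-SY5Y. On the higher side in BE(2)C, GRIA4, a glutamate receptor subunit, averaged 20.6 ± 2.74 in Kelly, 41.4 ± 6.89 in BE(2)C, against 3.91 ± 0.216 in SH-SY5Y. OAF, which lies from CADM1 on, averaged 30 ± 5.56 in Kelly, 61.1 ± 8.38 in BE(2)C, against 4.62 ± 0.328 in SH-SY5Y. Both were also called higher in Kelly than in SH-SY5Y, with log2 fold changes of 2.13 and 2.45. ARHGAP32, which lies from CADM1 on, averaged 13.7 ± 2.39 in Kelly, 1.38 ± 0.266 in BE(2)C, against 22.5 ± 1.53 in SH-SY5Y. KDELC2 averaged 15.4 ± 2.35 in Kelly, 2.83 ± 1.94 in BE(2)C, against 25.3 ± 2.14 in SH-SY5Y. Both were called higher in Kelly than in BE(2)C, by 2.62 and 2.26. Before CADM1, HTR3A, a serotonin receptor subunit, averaged 12.6 ± 2.04 in Kelly, 8.55 ± 1.8 in BE(2)C and was listed at 0 in SH-SY5Y, and ELMOD1 averaged 25 ± 10.5 in Kelly, 0.598 ± 0.197 in BE(2)C, against 1.2 ± 0.687 in SH-SY5Y.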

How the data were processed

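Gene-level values of 9 libraries were deposited by the authors as log10 values and were read here as log10(TPM + 1). The back-transformed totals ran from 966592 to 980009, which cannot show by themselves whether 1 had been added. HISAT 0.1.6, Salmon 0.3.2 and GRCh38 are named in the submitters' processing notes; the sources used here say nothing of how transcripts were joined into genes or of strand. The number of columns left unused is 0. Spike-ins and 11 markers were left out of the total; 28 entries with a date for a name stayed in it and were not tested. Trimmed-mean factors (trimming 30% of log ratios, 5% of log levels) ran from 0.758 to 1.17. limma 3.58.1 in R 4.3.3 was fitted on log2(scaled TPM + 1), a scale that understates changes of low genes, over all 9 libraries, after a filter of 1 or more in 3 libraries, Benjamini-Hochberg adjustment over all genes tested, two-sided, threshold 0.05. The steps were run on simulated data with few genes changed, in Kelly alone, and with the SH-SY5Y levels and spread for all lines. Far more genes differed in the real data, so the simulation cannot show how well the scaling holds here. Of the symbols, 18700 were placed by symbol, 544 by another symbol and 462 not. The members and lists were chosen with earlier results of these data known, and the split at CADM1 after the values were seen. Values in all libraries are given for members called with a log2 fold change of at least 1 and a mean of at least 10 in the higher line, and for 8 members always; from other genes of the arm, the 3 highest and 3 lowest per comparison. Both comparisons with SH-SY5Y share its libraries, so their values stand side by side. Alternatives changed the scaling, the pseudocount, the filter, the replicate block and the library left out; leaving mitochondrial genes out of the total was added after seeing the data.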

Additional observations from a re-analysis of the deposited data

Results flagged for a closer look

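For the members named here the fold changes of Kelly and BE(2)C against SH-SY5Y were called in opposite directions, and the difference of the effects, which equals Kelly against BE(2)C, was itself called by limma. Since the comparisons share the SH-SY5Y libraries, no count of them is read as a result. The log2 differences of the effects were -2.25 for CADM1, -1.88 for PAFAH1B2, -1.37 for KMT2A, -1.97 for HYOU1, -1.61 for H2AFX, -2.23 for MCAM, -2.73 for THY1, -1.90 for STT3A, -1.30 for APLP2 and -1.52 for JAM3. UBASH3B, with 2.38, passed the filter through Kelly alone and had to differ, so nothing is read from its value. The BE(2)C side of PAFAH1B2, KMT2A, H2AFX, MCAM, APLP2, CADM1 and JAM3 was not called, or turned, under at least 1 other scaling.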

How the results depend on the processing

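Of the counts and medians recomputed, 362 stayed within 1.5 times or 1 SD and 46 moved; of the single-gene values, 1175 kept direction and call, 38 lost a call, 5 gained one and 11 turned in sign. The cause of these shifts was not tested. With 1 library left out in turn, the members' median less that of all genes ran from -0.93 to -0.79 (Kelly against SH-SY5Y), 0.35 to 0.43 (BE(2)C against SH-SY5Y) and -1.12 to -1.02 (Kelly against BE(2)C), and that of other arm genes from -0.48 to -0.37, 0.29 to 0.38 and -0.85 to -0.74. Members called ran from 10 to 12 higher and 24 to 28 lower, 17 to 22 and 5 to 6, and 3 to 4 and 30 to 32 in that order; distal members called lower in Kelly ran from 23 to 27 and 26 to 27 against SH-SY5Y and BE(2)C.

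In the same order of comparisons, the members' median less all genes was -0.47, 0.30 and -0.68 as deposited, -0.81, 0.33 and -1.01 under quantile normalization and -0.67, 0.31 and -0.82 with no filter, and -0.95 with a pseudocount of 0.1 in the Kelly against SH-SY5Y comparison. For other arm genes it was -0.32 and -0.65 as deposited in the Kelly comparisons (against SH-SY5Y, then BE(2)C), 0.43 under quantile normalization in BE(2)C against SH-SY5Y, 0.41 and -0.85 with a pseudocount of 0.1 and 0.074 and -0.18 with no filter (BE(2)C against SH-SY5Y, then Kelly against BE(2)C), -0.064 with no filter in Kelly against SH-SY5Y and -0.96 with a filter of 10 in Kelly against BE(2)C.

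Rescaled to the gene total only, 10 members were higher and 10 lower in BE(2)C against SH-SY5Y, and 5 higher in Kelly against BE(2)C, 4 of them up to USP28; other arm genes were 22 higher and 36 lower in BE(2)C against SH-SY5Y. As deposited, members called higher were 2, 9 and 1, of which 2 and 1 up to USP28 in the Kelly comparisons, and 10 were lower in BE(2)C against SH-SY5Y; other arm genes were 8, 17 and 6 higher, and 27 lower in BE(2)C against SH-SY5Y. With no filter, 7 members were higher in Kelly against BE(2)C. With a filter of 10, other arm genes were 11 and 8 higher in the Kelly comparisons and 9 lower in BE(2)C against SH-SY5Y, and with mitochondrial genes out of the total 30 were lower there.

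The share of all calls that were higher was 50.8%, 48.2% and 53.2%, against 41.5%, 23.6% and 74.3% with the gene total only, 12.1%, 18.2% and 40.1% as deposited, and 36.3% in BE(2)C against SH-SY5Y with mitochondrial genes out. The median of all genes moved to -0.13, -0.44 and 0.31 with the gene total only, and to -0.13 and -0.23 against SH-SY5Y with mitochondrial genes out. In BE(2)C against SH-SY5Y, values turned with the gene total only to -0.077 (ATM), -0.09 (H2AFX), -0.0099 (KMT2A) and -0.15 (PAFAH1B2), as deposited to -0.16, -0.20, -0.11, -0.25 and, for APLP2, -0.088, and under quantile normalization to -0.0016 (H2AFX). ATM in Kelly against SH-SY5Y ran from -0.33 to 0.045 with 1 library left out, the last without Kelly library 3.

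The replicate numbers did not pair the libraries: deviations of same-numbered libraries correlated at -0.0544 to 0.0258. With the number as a replicate block, members were called higher and lower 11 and 26 times, 20 and 6 times, and 4 and 30 times. Depth is unknown, and the low members DPAGT1, FOXRED1 and ACAD8 had the largest standard errors among members.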
